A study of Mus musculus with 3 samples.

Results

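The cells described here were wound monocytes and macrophages with high mRNA levels of a set of chemokine and matrix genes and little or no Ly6c2. They were chosen from their own counts. Barcodes with at least 200 detected genes, under 10% of unique molecular identifiers (UMIs, counts of single mRNA molecules) from mitochondrially encoded genes and at least 2000 UMIs were pooled. Each was scored by the mean of log1p(UMIs per 10000) over 6 genes, Acod1, Ccl24, Cxcl3, Ccl2, Ccl7 and Thbs1. Members were the barcodes in the top 10% of the score that held fewer than 2 UMIs of Ly6c2, a surface protein gene of freshly recruited mouse monocytes. The rule found 165 members among 2702 barcodes that passed the filters, out of 4877 deposited, and left 2537 others. Of the 270 barcodes in the top 10%, 105 were left out for their Ly6c2 UMIs, and 99 of these came from day 3.

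The cells were isolated from wounded skin of male C57BL6/J mice, with no other genotype or treatment, at day 3, day 6 and day 10 after injury. Each day was 1 library from 2 pooled mice, so the variation between animals is not known, and library and day cannot be told apart. No p-value is given anywhere, because members were chosen on the values that are described. All intervals cover counting error only. The kept barcodes numbered 879, 551 and 1272 at days 3, 6 and 10, and no barcode sequence was shared between libraries among them. The deposited libraries held 11199361, 9273960 and 13972817 UMIs in the same order.

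Chemokines are small secreted proteins that draw leukocytes along a gradient. In a skin wound, CXC chemokines such as CXCL1, CXCL2 and CXCL3 act on the neutrophil receptor CXCR2, and CCL2 and CCL7 act on CCR2 of inflammatory monocytes. Monocytes that enter a wound lose Ly6C as they mature into macrophages, while local cytokines, oxygen and lipids shape what they express. Acod1 encodes the enzyme that makes itaconate, a metabolite of activated macrophages. Ccl24 encodes an eosinophil-attracting chemokine that is used as a gene of interleukin-4-driven macrophages, and Thbs1 encodes the matrix protein thrombospondin-1.

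The shared chromosomal place and promoter letters of the CXC genes are shown here because Cxcl3 is a score gene and Cxcl1 and Cxcl2 were among the genes with the largest ratios in members. Ppbp, Pf4, Cxcl3, Cxcl1 and Cxcl2 lie on the plus strand of mouse chromosome 5 between 90768518 and 90905938 (GRCm38, which mm10 names, GENCODE vM21). The 250 bases before the start site were read from RefSeq (GRCm38.p6) and are written 5′ to 3′, with the longest run of letters that the windows of Cxcl3, Cxcl1 and Cxcl2 share, GGGAATTTCCC, in capitals. For Cxcl3 the window is chr5:90785851-90786100 on the plus strand, for Cxcl1 chr5:90890995-90891244 on the plus strand and for Cxcl2 chr5:90903649-90903898 on the plus strand.
Cxcl3: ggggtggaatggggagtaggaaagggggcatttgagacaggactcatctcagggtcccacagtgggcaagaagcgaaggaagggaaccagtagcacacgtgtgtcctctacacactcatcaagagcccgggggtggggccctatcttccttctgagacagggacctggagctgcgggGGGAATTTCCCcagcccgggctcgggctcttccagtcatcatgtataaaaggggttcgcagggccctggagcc
Cxcl1: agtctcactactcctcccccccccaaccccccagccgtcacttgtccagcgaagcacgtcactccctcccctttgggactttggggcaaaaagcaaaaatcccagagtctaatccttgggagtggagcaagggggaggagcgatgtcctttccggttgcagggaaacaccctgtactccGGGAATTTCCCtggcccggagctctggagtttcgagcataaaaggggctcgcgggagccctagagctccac
Cxcl2: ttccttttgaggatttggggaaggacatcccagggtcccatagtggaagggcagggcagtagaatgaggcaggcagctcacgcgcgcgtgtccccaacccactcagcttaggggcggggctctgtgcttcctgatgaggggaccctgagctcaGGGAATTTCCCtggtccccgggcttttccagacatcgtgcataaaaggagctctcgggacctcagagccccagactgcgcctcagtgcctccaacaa
This run of 11 letters, which has the form of an NF-kB site, began 73, 71 and 97 bases before the RefSeq start site of Cxcl3, Cxcl1 and Cxcl2. The GENCODE starts differ, and those of Cxcl1 and Cxcl2 lie inside these windows. Searched on both strands, it was present in 14 of 32851 mouse promoter windows of this length, or 0.0426%. It was taken from the 3 windows themselves, so their holding it is no finding, and a match is a description of the letters, not of a bound site.

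The window of Acod1, chr14:103046762-103047011 on the plus strand, is given as the contrasting case among the score genes. Capitals mark TATAAA, the letters of a TATA box, which began 28 bases before the RefSeq start site. The GENCODE start of Acod1 differs and lies inside this window, ahead of TATAAA.
Acod1: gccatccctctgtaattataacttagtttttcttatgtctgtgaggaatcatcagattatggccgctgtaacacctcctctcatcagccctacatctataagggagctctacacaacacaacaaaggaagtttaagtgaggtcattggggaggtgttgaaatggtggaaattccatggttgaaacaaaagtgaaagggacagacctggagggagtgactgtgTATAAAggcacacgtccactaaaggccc
It held no GGGAATTTCCC. TATAAA was present on the sense strand in 2494 of the 32851 windows, or 7.59%. Cxcl3 holds it as well, 30 bases before its start site, and the windows of Il1a, Areg, Tnf and Il1b hold it 29 to 32 bases before theirs. Ccl24, Ccl2, Ccl7, Thbs1 and Arg1 are named only.

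Members were most frequent in the day 3 library. Day 3 had 96 among 879 barcodes, or 10.9% (exact binomial 95% interval 8.94 to 13.2%). Day 6 had 25 among 551, or 4.54% (2.96 to 6.63%), and day 10 had 44 among 1272, or 3.46% (2.52 to 4.62%). Since the barcodes were ranked in a common pool, the share of each day depends on the others. Taking the top 10% inside each library gives every day an equal share before the Ly6c2 limit. The shares were then 4.89% for day 3, 9.26% for day 6 and 9.43% for day 10. They differ only through the barcodes that the Ly6c2 limit removed, so they do not compare the frequency of high scores between days. Without the Ly6c2 limit, the day 3 share was 22.2%. Members held fewer UMIs than others, with medians of 7724.5, 9814 and 7069 in members at days 3, 6 and 10, against 11086, 12829 and 8806.5 in others. The median mitochondrial share was 4.25, 4.01 and 3.11% in members, against 3.79, 3.62 and 3.11% in others.

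The score was a continuum. The limit lay at 1.65, with medians of 2.24, 2.12 and 1.81 in members at days 3, 6 and 10, against 0.702, 0.271 and 0.450 in others. The highest member scores were 4.20, 3.66 and 2.68. Within 0.1 above the limit lay 23 members, and within 0.1 below it lay 34 barcodes that also held fewer than 2 Ly6c2 UMIs. Just inside the limit, Cxcl3 averaged 37.8, Ccl2 20.5 and Acod1 0.921 UMIs per 10000. Just outside it, the averages were 55.7 for Cxcl3, 8.57 for Ccl2 and 0.533 for Acod1. These genes chose the members, so the values are a description.

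**Figure D1:**
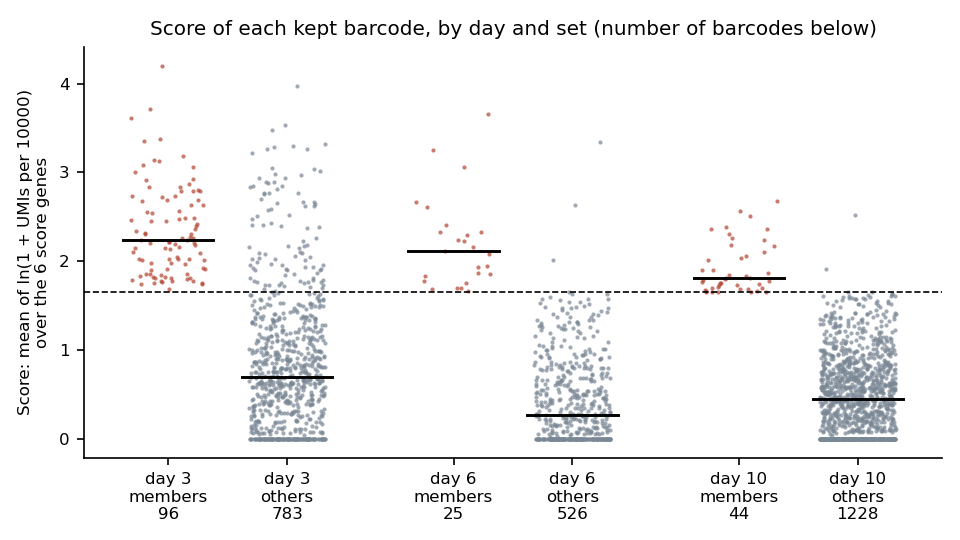
Score of every kept barcode (mean log1p of UMIs per 10000 over 6 genes, vertical axis) by library, with members left of all other barcodes, medians as bars and the score limit of 1.65 as a dashed line. Others above the limit held at least 2 Ly6c2 UMIs and come mainly from day 3, and no gap in the score separates members from the rest.

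Among the score genes, Thbs1, Cxcl3 and Ccl2 made up most of the level, and the genes of the working name, Acod1 and Ccl24, were the least abundant. UMIs were summed over the members and over the others of each library and expressed as CPM, which scales each sum to a common total. These values chose the members and are given as a description. Thbs1 (ENSMUSG00000040152, 2:118111876-118127133, plus strand) had 8258, 6787 and 4662 CPM in members at days 3, 6 and 10, against 2630, 912 and 1218 CPM in others. Cxcl3 (ENSMUSG00000029379, 5:90786103-90789600, plus strand), which encodes a ligand of CXCR2, had 7078, 6811 and 3853 CPM in members, against 670, 376 and 359 CPM in others. Ccl2 (ENSMUSG00000035385, 11:82035571-82037453, plus strand) encodes the main CCR2 ligand and had 4088, 2886 and 3341 CPM in members, against 1120, 187 and 198 CPM in others. The level in others at day 10 was 0.177 times that at day 3 for Ccl2, while in members it was 0.817 times. Members of every day had to pass the same score limit, which includes Ccl2, so these ratios are not set against each other. Day 3 others also included 99 top-score barcodes with at least 2 Ly6c2 UMIs, against 2 such barcodes in day 10 others.

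Ccl7, Acod1 and Ccl24 were less abundant in members. Ccl7 (ENSMUSG00000035373, 11:82045712-82047525, plus strand), a neighbour of Ccl2 that also acts on CCR2, had 1785, 1321 and 1135 CPM in members, against 294, 80.9 and 72.0 CPM in others. Acod1 (ENSMUSG00000022126, 14:103046977-103056573, plus strand) had 279, 442 and 159 CPM in members, against 49.2, 30.6 and 23.3 CPM in others. Ccl24 (ENSMUSG00000004814, 5:135569937-135573049, minus strand) had 436, 245 and 47.1 CPM in members, against 54.3, 16.7 and 10.5 CPM in others. Ccl24 was detected in 42.7, 12.0 and 9.09% of members by day, and at day 10 in 4 cells, with 56.2% of the UMIs in 1 of them. The limit gene Ly6c2 had 28.0, 8.18 and 2.94 CPM in members, against 616, 61.4 and 73.9 CPM in others.

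**Figure D2:**
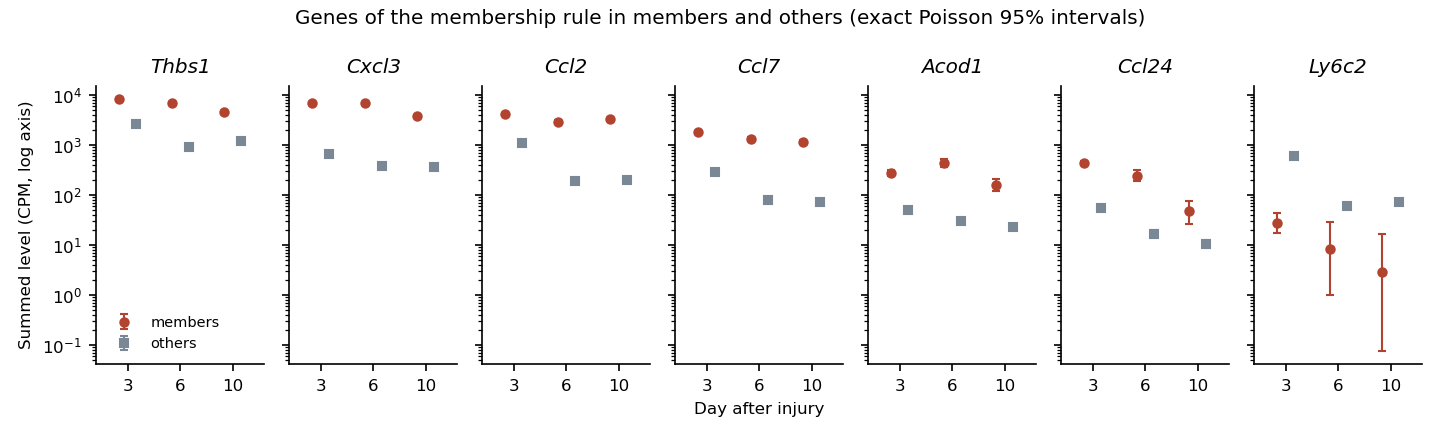
Levels of the 6 score genes and Ly6c2 in members and in all other barcodes of each library (CPM of summed UMIs, log axis), with exact Poisson 95% intervals that cover counting error only. Every score gene, chosen by the rule, is higher in members at each day, and Ccl24 in members is lowest at day 10, at 47.1 CPM.

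Most members therefore did not carry the pair of genes in the working name. Acod1 and Ccl24 were detected together in 19 of 165 members, Acod1 without Ccl24 in 63, Ccl24 without Acod1 in 29, and neither in 54. Of the 19 with both, 15 were from day 3, 3 from day 6 and 1 from day 10. Ccl2 and Cxcl3 were detected together in 124 members, Ccl2 without Cxcl3 in 25 and Cxcl3 without Ccl2 in 16. The members are better described as Thbs1-, Cxcl3- and Ccl2-high barcodes with little Ly6c2 than as Acod1 and Ccl24 cells. A count of 0 UMIs in a barcode of this depth does not show that a cell lacks the transcript.

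Because detection depends on depth, barcodes were thinned to 2000 UMIs each, a limit that every kept barcode reached. Others with at least 2 UMIs of Cd209a, a dendritic cell lectin gene, served as cells in which these genes are not expected. These barcodes were taken to show the level of free RNA, which was not itself measured. They numbered 132, 112 and 174, with median depths of 16089, 18213 and 14035 UMIs before thinning. After thinning, Acod1 was seen in 25, 32 and 18.2% of members at days 3, 6 and 10, against 0% of the Cd209a-positive barcodes of each day, with upper 95% limits of 2.76, 3.24 and 2.10%. Cxcl3 was seen in 77.1, 92 and 77.3% of members, against 0.758, 0 and 0.575%. Ccl24 was seen in 26, 8 and 2.27% of members, against 0, 0 and 0.575%. Its day 10 share rests on 1 thinned member cell and was not separable from that of the Cd209a-positive barcodes. Acod1, Cxcl3 and Ccl24 are score genes, so members were chosen for their UMIs and these gaps are a description.

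Inside the members, some pairs of score genes varied together and others in opposite directions. Ccl2 and Ccl7 had Spearman coefficients of 0.67 over 96 day 3 members and 0.57 over 44 day 10 members, against 0.68 and 0.41 over all 879 and 1272 kept barcodes of these days. In day 10 members Cxcl3 paired with Thbs1 at 0.62, whereas Ccl2 with Thbs1 gave -0.61 and Cxcl3 with Ccl7 gave -0.57. Over all day 10 barcodes these 3 pairs stood at 0.29, 0.15 and 0.10. Members were selected on a sum of these genes, and barcodes share library and depth, so these values are a description.

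Across the transcriptome, members had higher levels of single genes such as Il1a, Cxcl1, Cxcl2, Ptgs2, Arg1 and Hilpda, and lower levels of the MHC class II genes, than the other barcodes of the same library. A gene entered with at least 20 UMIs over both sums in each library, sums under 3 UMIs were set to 3, and a gene was called when its CPM was at least 2-fold higher or lower in members in all 3 libraries. Of 9422 genes, 179 (1.9%) were higher and 184 (1.95%) lower. Raising small member sums to 3 UMIs makes some genes look higher, and with at least 3 UMIs in the higher sum 125 (1.33%) were higher and 184 (1.95%) lower. The counts for gene lists below use this stricter rule and are read against 1.33 and 1.95%. The median log2 ratio over all tested genes was 0.03.

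Members differed less from the barcodes that came next in the score. Against the next 10% of the score with fewer than 2 Ly6c2 UMIs (52, 48 and 102 barcodes at days 3, 6 and 10), 1 gene was higher and 4 were lower in members by the 2-fold rule. The mean log2 ratio over libraries was 0.41 for Cxcl2, 0.38 for Cxcl1, 0.36 for Ptgs2 and 0.29 for Arg1 in that comparison, against 2.07, 2.38, 2.06 and 2.01 with all others. For Il1a it was 1.18, against 2.98 with all others. The ratios given next are against all others of the library.

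CXC chemokine genes outside the rule included Cxcl2, which had the highest CPM of those measured. Cxcl2 (ENSMUSG00000058427, 5:90903871-90905938), a CXCR2 ligand, had 26016, 27245 and 33577 CPM in members, against 7116, 5659 and 8023 CPM in others, and the ratios were 3.66, 4.81 and 4.19. It was detected in 96, 24 and 44 members. Cxcl1 (ENSMUSG00000029380, 5:90891241-90893115), another ligand of that receptor, had 575, 2269 and 1926 CPM in members, against 118, 426 and 352 CPM in others. Its ratios were 4.86 (95% interval 4.34 to 5.44), 5.33 (4.86 to 5.84) and 5.47 (5.03 to 5.94), and it came from 24, 15 and 25 member cells. Pf4, which encodes platelet factor 4 and is also expressed by some tissue macrophages, had 3596, 3590 and 8344 CPM in members, against 405, 1711 and 2608 CPM in others. Of 8 CXC genes measured besides Cxcl3, 4 were higher in members in all libraries and none was lower, with a median log2 ratio of 2.02. Their sum was 3.94, 4.13 and 3.90 times that of all others, and 1.4, 1.18 and 1.36 times that of the next 10% of the score. Against others with fewer than 2 Ly6c2 UMIs it was 5.15, 4.27 and 3.68 times as high.

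Other CXC genes rested on few cells or on part of the days. Ppbp, the platelet chemokine precursor beside Pf4, had 586, 123 and 41.2 CPM in members, against 11.4, 15.2 and 29.8 CPM in others, and was seen in 30, 3 and 5 member cells. Of the erythroid and platelet list, the platelet genes Gp9 and Itga2b had 0 UMIs in members, except for 1 member with Itga2b at day 3. Cxcl5, a neutrophil attractant, was called, but from 4, 3 and 2 member cells, with 45.9, 87.5 and 83.5% of its UMIs in 1 cell. Cxcl10, an interferon-induced ligand of CXCR3, had 706, 916 and 103 CPM in members, against 287, 181 and 57.7 CPM in others, and missed the 2-fold limit at day 10. Cxcl16 did not pass in any library, with 103, 249 and 253 CPM in members and 102, 342 and 329 CPM in others.

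Among 9 CC chemokine genes measured besides the score genes, 2 were higher and 1 lower, with a median log2 ratio of 0.75. Ccl3, an inflammatory chemokine gene of macrophages, had 1385, 1390 and 2394 CPM in members, against 603, 439 and 446 CPM in others. Ccl4, a close relative and neighbour of Ccl3, had 3367, 2514 and 2506 CPM in members, against 1634, 1073 and 527 CPM in others. Ratios of both were highest at day 10, at 5.37 for Ccl3 and 4.76 for Ccl4. Ccl8, expressed by resident dermal macrophages, was lower, with 2.67, 12.3 and 8.82 CPM in members against 12.0, 171 and 111 CPM in others. The dendritic cell chemokine genes Ccl17 and Ccl22 had 0 UMIs in members. Of 12 receptor genes, the formyl peptide receptor gene Fpr1 was higher and the fractalkine receptor gene Cx3cr1 lower, with Cx3cr1 at 4, 4.09 and 29.4 CPM in members against 39.2, 73.4 and 99.0 CPM in others.

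Cytokine genes were called higher more often than the background, at 6 of 13, with a median log2 ratio of 1.70. Il1a encodes interleukin-1 alpha, which acts as an alarm signal, and had 232, 384 and 588 CPM in members, against 31.1, 63.4 and 54.1 CPM in others. Its ratios were 7.47 (6.15 to 9.06), 6.06 (4.80 to 7.59) and 10.9 (9.22 to 12.8). Il1b, the gene of interleukin-1 beta, had 6906, 7212 and 7685 CPM in members, against 3774, 1546 and 1901 CPM in others, and missed the call through its day 3 ratio of 1.83. Il1rn, the gene of the secreted antagonist of interleukin-1, was also higher, with 604, 1247 and 703 CPM in members against 293, 287 and 205 CPM in others. Tnf, the gene of tumour necrosis factor, had 680, 1717 and 897 CPM in members, against 237, 462 and 219 CPM in others. These are levels summed over all members, and Il1a was detected in 37 of 96, 15 of 25 and 18 of 44 of them.

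The remaining called cytokine genes were scarce. Lif had 44.0, 61.3 and 124 CPM in members, against 20.7, 13.5 and 13.6 CPM in others. Il6 had 145, 147 and 35.3 CPM in members, against 26.6, 8.91 and 3.43 CPM in others, from 19, 4 and 2 member cells. At day 10, 83.3% of the Il6 UMIs lay in 1 cell. Il23a, a subunit of interleukin-23, came from 8, 1 and 3 member cells. Il10, an anti-inflammatory cytokine gene, was not called, with 13.3, 69.5 and 94.1 CPM in members and 14.4, 50.2 and 13 CPM in others, and 75.0% of its day 10 member UMIs were in 1 cell.

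Enzymes of prostaglandin synthesis were among the inflammatory genes called. Ptgs2 (ENSMUSG00000032487, 1:150100031-150108227) encodes cyclooxygenase-2 and had 2941, 4023 and 2882 CPM in members, against 975, 791 and 615 CPM in others. Ptges, which encodes the enzyme that makes prostaglandin E2 from the product of cyclooxygenase, had 6.67, 253 and 185 CPM in members, against 2.56, 22.7 and 26.2 CPM in others. Nlrp3, the sensor of an inflammasome, had 401, 662 and 615 CPM in members, against 156, 220 and 202 CPM in others. Of 13 genes on the list of inflammatory enzymes and inflammasome parts, 5 were higher and none was lower. Of 13 genes of prostaglandin and leukotriene enzymes, Ptgs2 and Ptges were the 2 that were called, and the median log2 ratio was 0.04.

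The wider activation lists held fewer calls. Among NF-kB subunits and feedback genes, 2 of 17 were higher, Tnfaip3 and Cflar, with a median of 0.47. Tnfaip3, which encodes the inhibitor A20, had 768, 1881 and 876 CPM in members, against 348, 573 and 328 CPM in others. Immediate early genes, which respond to cell handling as well as to signals, had 1 of 22 higher, Klf6, with a median of 0.38. Heat shock genes had 0 of 13 called in either direction and a median of -0.69. Pattern recognition receptor genes had 1 of 16 higher, the C-type lectin gene Clec4d, with 1262, 1263 and 1444 CPM in members against 444, 323 and 686 CPM in others.

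Arg1 stood apart from the other genes of alternative activation. Arg1 (10:24915221-24927484) encodes arginase 1, which turns arginine into ornithine, and had 3743, 4203 and 7285 CPM in members, against 619, 1023 and 2797 CPM in others. Its ratios by day were 6.05 (5.78 to 6.33), 4.11 (3.84 to 4.39) and 2.6 (2.5 to 2.71), and it was detected in 78, 24 and 44 members. Of the 15 genes on that list Arg1 was the one called higher, while the lectin genes Mgl2 and Clec10a were lower and the median log2 ratio was -0.16. Nos2, which encodes the enzyme that competes with arginase for arginine, had 9.34, 20.4 and 165 CPM in members, against 0.111, 6.04 and 39.7 CPM in others. In the list of citrate cycle and itaconate genes, measured besides Acod1, none of 18 was higher and the fumarase gene Fh1 was lower, with a median of -0.45.

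Genes of low oxygen, stress and growth signals were also among those with the largest ratios. Hilpda, a lipid droplet gene induced in hypoxia, had 838, 1190 and 1412 CPM in members, against 206, 370 and 391 CPM in others. Ero1l, an oxidase of the endoplasmic reticulum, had 213, 241 and 594 CPM in members, against 66.6, 72.4 and 199 CPM in others. Vegfa (ENSMUSG00000023951, 17:46016993-46032369, minus strand), the gene of a growth factor for blood vessels, had 820, 1018 and 1041 CPM in members, against 242, 305 and 437 CPM in others. With Bnip3, a gene of mitochondrial turnover, 4 of 15 hypoxia genes were higher, and the median was 0.98. The hypoxia sum was 2.36, 2.39 and 2.15 times that of all others, and 1.29, 1.06 and 1.14 times that of the next 10% of the score. Of 15 glycolysis genes, the lactate transporter gene Slc16a3 was the 1 that was called, with a median of 0.65.

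Redox genes followed. Slc7a11, the cystine carrier, had 640, 1173 and 903 CPM in members, against 192, 237 and 305 CPM in others. Prdx6, a peroxidase, had 1066, 912 and 1068 CPM in members, against 405, 276 and 421 CPM in others. Hmox1, which encodes haem oxygenase 1, had 456, 2200 and 2494 CPM in members, against 207, 804 and 1103 CPM in others. These were the 3 called of 16 NRF2 antioxidant genes, which had a median of 0.64. The list sum was 1.55, 1.89 and 1.72 times that of all others, and 1.13, 0.946 and 1.06 times that of the next 10% of the score.

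Growth factor genes gave 3 of 12 higher, Vegfa, Areg and Hbegf, with a median of 0.28. Areg encodes amphiregulin, a ligand of the epidermal growth factor receptor, and had 115, 286 and 182 CPM in members, against 34.8, 41.2 and 8.66 CPM in others. It came from 8, 2 and 4 member cells, so its ratios of 3.29, 6.94 and 21.1 describe a few barcodes. Hbegf, another ligand of that receptor, had 29.3, 127 and 64.7 CPM in members, against 9.80, 31.5 and 20.9 CPM in others. Errfi1, a feedback inhibitor of the same receptor, had 256, 581 and 303 CPM in members, against 80.3, 90.4 and 89.1 CPM in others. Among the other genes with the largest ratios were Pdpn, the membrane protein podoplanin, at 583, 1288 and 1076 CPM in members against 98.4, 199 and 347 CPM in others, and the transcription factor gene Ets2, at 491, 515 and 479 CPM in members against 187, 144 and 147 CPM in others. Phlda1, a gene induced by growth signals, had 474, 1075 and 1115 CPM in members, against 165, 257 and 237 CPM in others.

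Of 18 genes of the provisional matrix, clotting and fibrinolysis, 8 were higher in members and none was lower, with a median log2 ratio of 1.27. The list sum, without Thbs1, was 1.98, 2.19 and 1.77 times that of all others. Set against the next 10% of the score it was 0.809, 1.14 and 1.09 times as high. F3, the gene of tissue factor, which starts clotting, had 42.7, 135 and 141 CPM in members, against 13.7, 13.1 and 9.43 CPM in others, from 13, 5 and 10 member cells. Plaur, the urokinase receptor gene, had 887, 760 and 482 CPM in members, against 370, 221 and 197 CPM in others. Also called were Vcan, Serpinb2, Cd44, Sdc4 and Itgav. Spp1, the gene of osteopontin, was not called, with 3140, 4019 and 4885 CPM in members and 1041, 2600 and 2566 CPM in others.

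**Figure D3:**
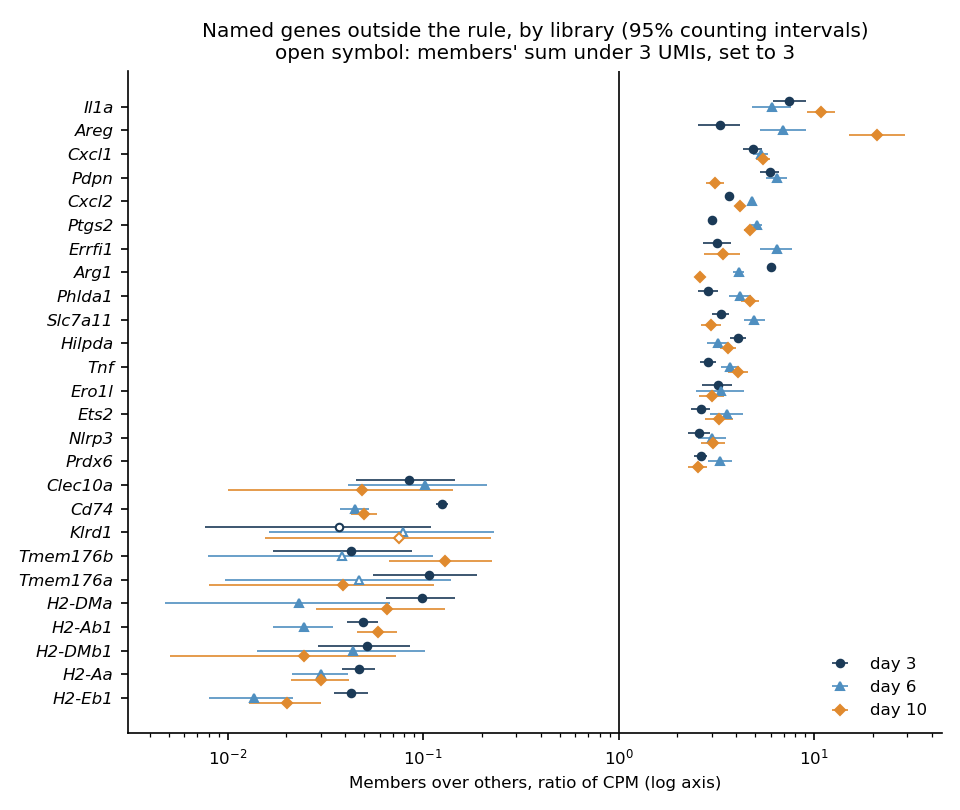
Ratio of CPM in members over others in each library (log axis) for the 16 and 10 genes with the largest and smallest ratios, with exact 95% intervals of counting error, open symbols where the members' sum was set to 3 UMIs and a line at equal levels. Il1a has the largest ratio of day 3, at 7.47, Areg that of day 10, at 21.1, and the MHC class II genes lie on the far left together with Klrd1, Tmem176a, Tmem176b and Clec10a.

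MHC class II genes, which present antigen to helper T cells, were the most strongly lower group. All 8 measured genes of the list were lower in members in all libraries. H2-Eb1, a beta chain gene, had 132, 73.6 and 70.6 CPM in members, against 3079, 5404 and 3510 CPM in others, which was 23.3-fold (19.1 to 28.7), 73.4-fold (46.5 to 124) and 49.7-fold (33.4 to 77.6) lower. H2-Ab1, another beta chain gene, had 160, 139 and 226 CPM in members, against 3255, 5632 and 3871 CPM in others. Cd74, the chaperone of class II, had 1096, 564 and 509 CPM in members, against 8765, 12604 and 10180 CPM in others. Ciita, the regulator of class II transcription, had 4, 0 and 0 CPM in members, against 72.5, 121 and 92.8 CPM in others. Of 14 MHC class I genes none was called in either direction, and their median was -0.06.

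Markers of dendritic cells moved with this difference. The markers of conventional dendritic cells summed to 232, 200 and 14.7 CPM in members, against 556, 483 and 431 CPM in others, and 5 of the 7 measured were lower in members. Most of the member sum at days 3 and 6 was Ifi205, an interferon-induced gene, at 229 and 188 CPM, while Cd209a was at 0, 8.18 and 0 CPM and Zbtb46, Xcr1, Clec9a, Kmo and Dpp4 were at 0. Markers of migratory dendritic cells summed to 13.3, 16.4 and 20.6 CPM in members, against 110, 131 and 64.4 CPM in others. Against the 598, 361 and 968 others with no UMI of 7 dendritic cell markers, the class II sum was 3.6-, 8.12- and 7.33-fold lower in members, compared with 11.9-, 31.1- and 23.2-fold against all others. That comparison gave 52 genes higher and 80 lower over the transcriptome. Against the next 10% of the score, the class II sum was 2.96-, 1.68- and 1.64-fold lower in members. Against the 342, 490 and 1135 others with fewer than 2 Ly6c2 UMIs, the limit set for members, it was 22.2-, 32.0- and 24.3-fold lower.

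The other genes with the lowest ratios differed in how far their ratios changed when barcodes with dendritic cell markers were left out. Klrd1, a lectin-like receptor gene, had 0 UMIs in members, against 107, 156 and 117 CPM in others, which was at least 26.8-, 12.7- and 13.2-fold lower with the member sums set to 3 UMIs. Against others without dendritic cell markers its mean log2 ratio was 1.41, a value set by the 3 UMIs that stand in for the members' 0. Clec10a, a galactose-binding lectin gene of macrophages and dendritic cells, had 17.3, 28.6 and 8.82 CPM in members, against 204, 279 and 181 CPM in others. Its mean log2 ratio was -3.73 against all others and -1.08 against others without dendritic cell markers. Tmem176b, a membrane protein gene, had 9.34, 8.18 and 35.3 CPM in members, against 219, 319 and 274 CPM in others. Its mean log2 ratio was -4.07 against all others and -2.94 against others without dendritic cell markers. For Tmem176a these values were -4.10 and -2.64.

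The lists of maturation, lipid and cell cycle genes held few calls. Classical monocyte genes summed to 14786, 8508 and 6379 CPM in members, against 15016, 6891 and 7517 CPM in others, with Vcan as the 1 of 12 that was higher. Their median log2 ratio was -0.75, with -0.25, -0.44 and -1.12 at days 3, 6 and 10. Mature macrophage genes summed to 7490, 7596 and 16500 CPM in members, against 6367, 15403 and 16699 CPM in others, with none of 16 called. Of 18 lipid handling genes, the tetraspanin gene Cd9 was higher, while Gpnmb, a gene of lipid-laden macrophages, and Lpl, the gene of lipoprotein lipase, were lower. Lpl had 64.0, 57.2 and 2.94 CPM in members, against 166, 933 and 189 CPM in others. None of 14 S phase and 9 G2/M genes was called, and the G2/M sums were 9.34, 36.8 and 58.8 CPM in members, against 56.2, 191 and 126 CPM in others.

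**Figure D4:**
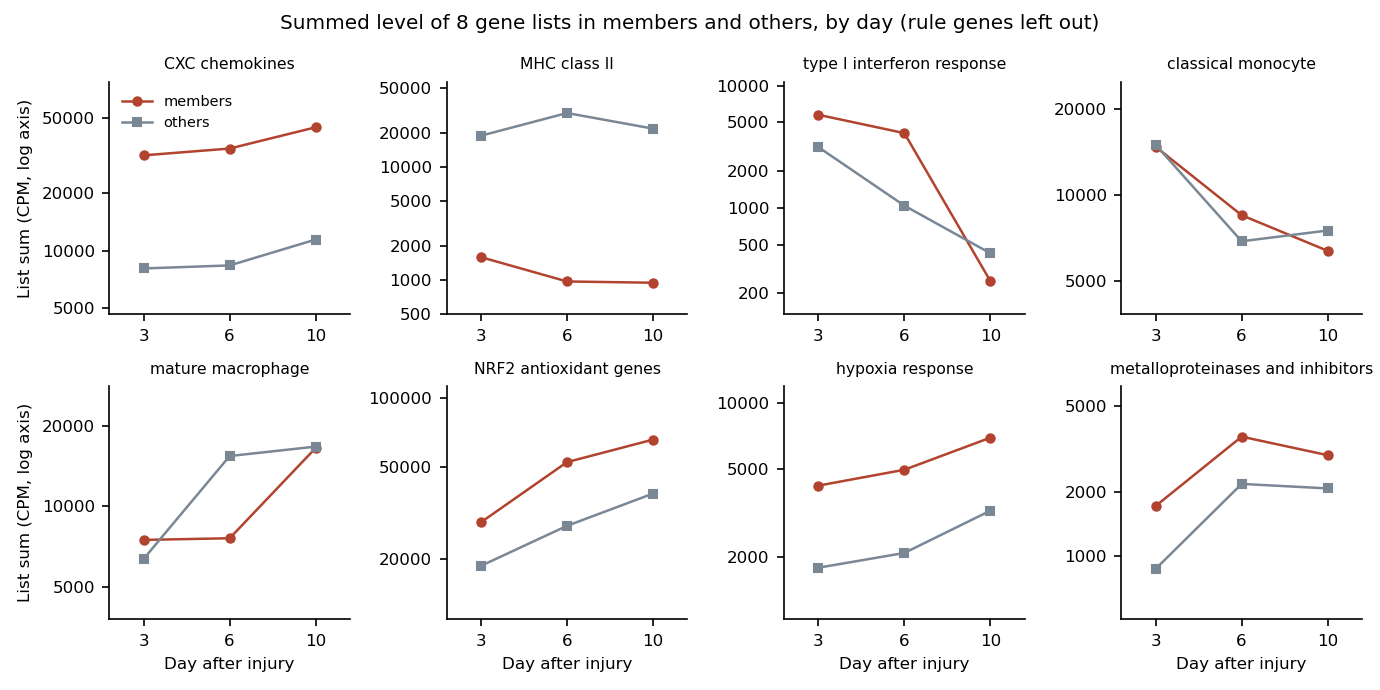
Summed CPM of 8 gene lists (log axes that differ between panels) in members and in others against the day after injury, each point 1 library. MHC class II sums lie at 944 to 1590 CPM in members and at 18976 to 30138 CPM in others, and the interferon sums of members lie above those of others at days 3 and 6 and below them at day 10.

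Markers of further cell types were checked in the same sums. Csf1r, the receptor gene that marks monocytes and macrophages, was seen after thinning in 34.4, 36 and 45.5% of members, against 39.6, 43.5 and 51.2% of others and 20.5, 25 and 19.5% of the Cd209a-positive barcodes. Neutrophil markers summed to 450, 948 and 271 CPM in members, against 142, 235 and 141 CPM in others, mainly from S100a8 and S100a9. Of the 4 measured, S100a8 was called higher, and the median log2 ratio was 1.35. Ly6g, Camp and Ngp were at 0 in members. Csf3r and Mmp8 had member UMIs at each day, Retnlg at days 3 and 6, Cxcr2 at days 3 and 10 and Ltf at day 10. S100a8 had 208, 397 and 138 CPM in members, against 44.0, 86.7 and 66.8 CPM in others, and 71.2% of the day 3 member UMIs were in 1 cell. The list of natural killer and innate lymphoid cells differed through Il7r alone, at 135, 368 and 191 CPM in members against 59.6, 132 and 86.4 CPM in others, with its 6 other genes at 0 in members. Pecam1, an adhesion gene of endothelium and leukocytes, was also called, at 24.0, 36.8 and 55.9 CPM in members against 9.46, 17.7 and 23.2 CPM in others. Vwf, Cldn5, Emcn and Egfl7 were at 0 in members, while Kdr had member UMIs at days 3 and 6 and Cdh5 at days 3 and 10. Mast cell markers were at 0 in members, and T cell, B cell, keratinocyte and pericyte sums stayed at or below 8.18 CPM. Fibroblast markers summed to 6.67, 32.7 and 55.9 CPM in members, against 29.4, 16.4 and 33.0 CPM in others, so the member sum was the higher at days 6 and 10. Pdgfra alone of this list was at 0 in members at all days. Haemoglobin genes carried most of the 1824 CPM of the erythroid list in day 6 others, against 32.7 CPM in day 6 members. The part of these markers in the ratios was not tested.

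The genes whose levels ran most closely with the score over the 2702 barcodes were, by mean within-library Pearson r of log values, Clec4d (0.63), Arg1 (0.61), Cxcl2 (0.61), Pdpn (0.56) and Cd14 (0.54). Ets2 (0.53), Vegfa (0.53), Btg1 (0.52), Abca1 (0.50) and Adam8 (0.50) completed the 10 most alike. Barcodes share library and depth, so these coefficients are given with no p. Arg1, Cxcl2, Pdpn and Ets2 were on both this list and the list of largest ratios.

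Members of different days fell into different groups of like barcodes, and so did the kept barcodes as a whole. All kept barcodes were clustered with the score genes and Ly6c2 left out, which gave 13 clusters, and 4 of them held at least 10% of the members. Cluster 4, led by the interferon-induced genes Cxcl10, Rsad2 and Slfn4, held 60 members, of which 55 were from day 3, 5 from day 6 and 0 from day 10. Of all 260 barcodes of cluster 4, 233 were from day 3. Cluster 0, led by Ccl12, Slfn1 and Ifi213, held 35 members, of which 33 were from day 3 and 2 from day 6. Of all 370 barcodes of cluster 0, 309 were from day 3. Cluster 3, led by Mmp12, Ptges and Mmp13, held 6, 14 and 12 members of days 3, 6 and 10, among 24, 95 and 160 barcodes of these days. Cluster 9, led by Adm, Nos2 and Mt2, held 21 members, all from day 10, and 191 of its 194 barcodes were from that library. Members made up at most 23.1% of a cluster, in cluster 4, so they formed no cluster of their own. At a resolution of 0.4 in place of 0.8, 2 clusters held at least 10% of the members.

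**Figure D5:**
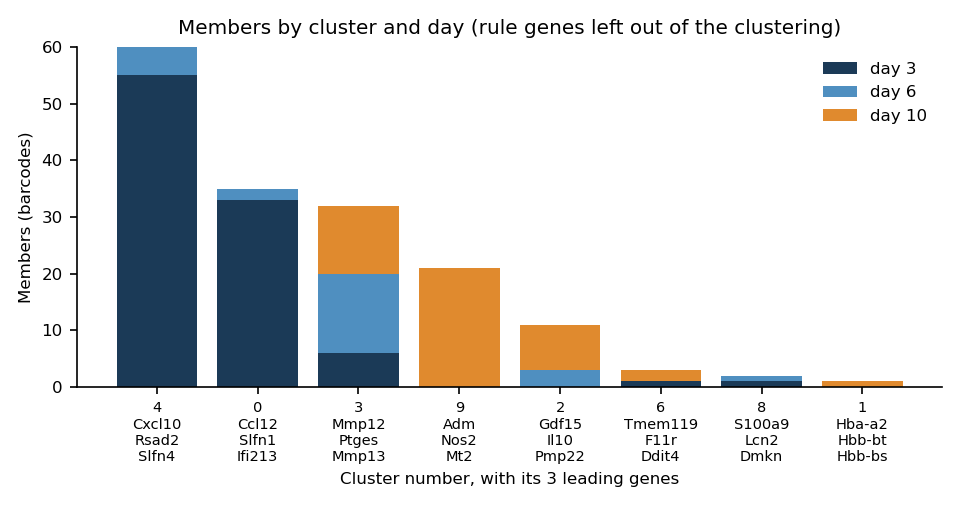
Number of members (stacked bars, coloured by day) in each of the 8 clusters that held any, labelled by cluster number and 3 leading genes. Day 3 members lie mainly in clusters 4 and 0 with 55 and 33 barcodes, day 6 members mainly in cluster 3 with 14, and day 10 members in clusters 9 and 3 with 21 and 12. Clusters 4, 0 and 9 consist mainly of barcodes of the same day as most of their members.

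Between days, members of day 10 had more metallothionein, antioxidant and protease transcripts and fewer interferon-induced and monocyte transcripts than members of day 3. Others changed in the same direction for these groups. Of 5116 genes with at least 20 UMIs over both sums, 567 (11.1%) were at least 2-fold higher and 699 (13.7%) at least 2-fold lower in day 10 members. The same ratio in others called 1402 (12.5%) higher and 419 (3.74%) lower of 11218 genes, with all-gene medians of -0.06 in members and 0.17 in others. Each day is 1 library, and the members differ in number and depth from the others, so these counts are not set against each other. Ratios of members and others at the same pair of days share the library and are given side by side.

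Type I interferon response genes were lower in day 10 members without exception, at 15 of 15 measured, with a median log2 ratio of -4.29. In others 17 of 18 were lower, with a median of -2.64. The list summed to 5766, 4084 and 253 CPM in members at days 3, 6 and 10, against 3137, 1043 and 426 CPM in others. Members thus held 1.84 and 3.91 times the sum of others at days 3 and 6 and 0.593 times at day 10, and none of 17 genes was called between members and others over all 3 libraries. Against the next 10% of the score with fewer than 2 Ly6c2 UMIs, the member sum was 1.25, 1.25 and 1.45 times as high. Against all others with fewer than 2 Ly6c2 UMIs it was 2.69, 4.50 and 0.717 times as high. The direction at day 10 therefore depended on the barcodes compared. Ifi27l2a, an interferon-induced gene, had 3815, 634 and 103 CPM in members, and was 37.1-fold (26.6 to 53.3) lower at day 10 than at day 3 in members and 4.25-fold lower in others. Isg15, a ubiquitin-like modifier, had 1286, 495 and 38.2 CPM in members and was 33.6-fold lower, against 9.68-fold lower in others. Rsad2, an antiviral enzyme gene, did not follow this order, with 422, 1014 and 17.6 CPM in members.

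Classical monocyte genes gave 8 of 11 lower and 1 higher in day 10 members, with a median log2 ratio of -2.55. In others 7 of 12 were lower and 0 higher, with a median of -1.87. Plac8, a gene of recruited monocytes, had 1603, 209 and 8.82 CPM in members, and was 182-fold (62.0 to 882) lower at day 10 than at day 3 in members and 5.61-fold lower in others. Ms4a4c, a membrane protein gene of Ly6C-high monocytes, had 1019, 135 and 0 CPM in members and was at least 115-fold lower at day 10 with that sum set to 3 UMIs. Chil3, a chitinase-like secreted protein gene, had 1331, 278 and 35.3 CPM in members and was 37.7-fold lower, against 8.91-fold lower in others. The Ly6c2 limit was the same at each day, so barcodes with little Ly6c2 still held other monocyte transcripts at day 3. The 1 gene of the list that was higher was Mgst1, a glutathione transferase gene, at 10.7, 49.1 and 209 CPM in members, a ratio of 19.6 (9.41 to 47.1), against 1.02 in others.

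The metallothionein genes Mt1 and Mt2 were higher in day 10 members. Mt2 had 4, 560 and 1200 CPM in members, a ratio of 300 (102 to 1460) between day 10 and day 3, against 33.5 in others. Mt1 had 155, 1566 and 5418 CPM in members, a ratio of 35.0 (29.0 to 42.6), against 6.03 in others. Both bind zinc and copper and respond to metals and oxidants. Of 16 NRF2 antioxidant genes, 8 were higher in day 10 members, with a median of 0.98, against 7 of 16 and 0.78 in others. Gclc, a subunit of the enzyme that limits glutathione synthesis, had 5.34, 49.1 and 118 CPM in members, a ratio of 22, against 2.38 in others.

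Matrix-degrading and macrophage genes were higher too. Mmp12, the macrophage elastase gene, had 1.33, 695 and 603 CPM in members, and with the day 3 sum of 1 cell set to 3 UMIs its ratio was 151 (50.8 to 737), against 8.49 in others. Of 10 metalloproteinase genes and their inhibitors, 6 were higher in day 10 members, with a median of 1.45, against 5 of 10 and 1.42 in others. Ctsk, the gene of cathepsin K, had 6.67, 119 and 141 CPM in members, but 72.9% of its day 10 UMIs were in 1 cell. Of 16 mature macrophage genes, 8 were higher, with a median of 1.17, against 9 of 16 and 1.45 in others. Sox4, a transcription factor gene, had 6.67, 61.3 and 138 CPM in members, a ratio of 20.7, against 24.6 in others. Nos2 had a ratio of 17.6 in members. In others the ratio was 119 (40.4 to 579) with the day 3 sum of 1 UMI set to 3.

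Il1b and Arg1, genes of the members' own pattern, moved less between days 3 and 10 in members than in others, a difference that was not tested. Other genes of the pattern, Il1a, Lif, Cxcl1 and Ccl3, moved more in members, by the levels given above. Day 3 others included 99 top-score barcodes with at least 2 Ly6c2 UMIs, against 2 such barcodes in day 10 others. Il1b was 1.11 times as high in day 10 as in day 3 members, and 0.504 times as high in others. Arg1 was 1.95 times as high in members and 4.52 times in others. Ppbp moved in opposite directions, with a ratio of 0.0703 in members and 2.63 in others.

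Day 6 members, 25 barcodes, lay between these days for some list sums and outside their range for others. Hypoxia genes summed to 4222, 4984 and 6971 CPM in members at days 3, 6 and 10, and inflammatory cytokine genes to 9569, 11578 and 10559 CPM. Of 4807 genes, 439 (9.13%) were higher and 544 (11.3%) lower in day 6 than in day 3 members. Of 3578 genes, 240 (6.71%) were higher and 331 (9.25%) lower in day 10 than in day 6 members. Hist1h1c, a linker histone gene, was among the largest gains of day 6 over day 3, with a ratio of 27.8, and Ptges had a ratio of 38.0. Ifitm1, an interferon-induced membrane protein gene, was lowest at day 6, with 582, 28.6 and 241 CPM in members. Hspa1b, a heat shock gene, was 19.9-fold lower in day 10 than in day 6 members.

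The Ly6c2 limit divided the day 3 barcodes of high score into groups of like size, 96 members and 99 barcodes with at least 2 Ly6c2 UMIs, whose median depth was 9559 UMIs. Of 5903 genes, 195 (3.3%) were at least 2-fold higher and 130 (2.2%) at least 2-fold lower in members. Ppbp had 586 CPM in members, against 21.5 CPM in the Ly6c2-positive barcodes, a ratio of 27.2. Pf4 had 3596 CPM in members, against 1038 CPM, and the scavenger receptor gene Cd36 had 205 CPM, against 48.1 CPM. Ccl2 was lower in members, at 4088 CPM against 6713 CPM, as was Cxcl10 at 706 CPM against 1211 CPM. The median log2 ratios of the list of interferon genes, at -0.33, and of classical monocyte genes, at -0.39, compare with -4.29 and -2.55 for day 10 against day 3 in members.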

How the data were processed

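The 3 libraries were made with the 10x Chromium platform and processed with Cell Ranger 3.0.2 against mm10, per the submitters' processing notes. The files deposited by the authors hold raw UMI counts per gene and barcode, which were not normalised. No label or file names the annotation release used in counting. Gene coordinates are from GENCODE vM21, and promoter letters, windows and their start sites from RefSeq, whose start sites can differ from the GENCODE ones.

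Barcodes were filtered and scored as described above, and UMIs were summed over members and over others in each library. Ratios of CPM have exact conditional binomial, CPM exact Poisson and shares Clopper-Pearson 95% intervals. The members and the gene lists were chosen with earlier results of these data known. Named genes were, at 100 CPM or more, the top 16 and the bottom 10 by ratio, judged by the least favourable library, and by size between days (10 each way for day 10 against day 3, 5 for the other pairs). Up to 2 genes each way of each list, all measured chemokine and cytokine genes and the 10 genes most alike to the score were added. Ifi205, Il7r, Pecam1, S100a8, genes at 0 and some further list members were named after their values were seen. Score genes, mitochondrial and ribosomal protein genes, uncharacterised models and other cell types' markers were left out of the rankings.

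Clusters used 2000 variable genes, 30 components, 15 neighbours and a Leiden resolution of 0.8 (scanpy 1.11.5, leidenalg 0.10.2, igraph 0.11.9). Scrublet called 3, 0 and 3 kept barcodes doublets and no member. So few calls leave doublets undetected, and all barcodes were kept. Computation used Python 3.11.15, numpy 2.4.6, scipy 1.17.1 and pandas 2.3.3, and was tested on simulated data. Alternatives changed the score, its limit, the Ly6c2 limit, the UMI minimum, the fold, the scaling, the comparison barcodes and the clustering.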

Additional observations from a re-analysis of the deposited data

Results flagged for a closer look

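Mrc1 and Selenop moved in opposite directions in members and others between the same days, and these differences were not tested. Mrc1, the mannose receptor gene, had a ratio of 5.69 between day 10 and day 6 in members and of 0.760 in others, with 406, 89.9 and 512 CPM in members at days 3, 6 and 10, against 214, 398 and 303 CPM in others. Selenop, the gene of a secreted selenoprotein, had a ratio of 5.20 between day 10 and day 6 in members and of 0.561 in others, with 141, 53.1 and 276 CPM in members, against 323, 683 and 383 CPM in others. Retnla, a secreted protein gene of alternative activation, had 0 UMIs in day 6 members and UMIs in 1 day 3 member. With the day 6 sum set to 3 UMIs its ratio between day 6 and day 3 was 0.0844 in members, a value that rests on that setting and that cell, and 7.55 in others. Day 6 is the day with 25 members.

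Barcodes with at least 2000 UMIs that were left out for 10% or more of mitochondrial UMIs included some that met the rule's limits on the score and Ly6c2. At day 3, 17 of 380 reached both the score limit and the Ly6c2 limit, at day 6 2 of 445 and at day 10 3 of 414, which was 4.47, 0.449 and 0.725%, below the 10.9, 4.54 and 3.46% of kept barcodes. No gene outside the rule was compared in them. Their median mitochondrial shares were 18.8, 21.0 and 17.0%.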

How the results depend on the processing

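No paired analysis was possible because each day has 1 library and no replicate. The shares of members at days 3, 6 and 10 were 6.60, 2.18 and 0.865% with the top 5% of the score, 16.8, 13.2 and 11.5% with the top 20%, and 4.89, 9.26 and 9.43% with the top 10% of each library. The day 3 share was 22.2% without the Ly6c2 limit and 8.53% at 0 Ly6c2 UMIs, and the day 6 share 6.72% without Ccl2 in the score. Of 179 genes higher in members and 184 lower, counts became 727 and 87 with the top 5%, 30 and 57 at 3-fold, 686 and 584 at 1.5-fold, 1 and 4 against the next 10% of the score, and 52 and 80 against others without dendritic cell markers. Genes higher were 316 at 0 Ly6c2 UMIs, 87 with at least 100 UMIs and 2045 with no minimum. Genes lower were 285 without Ccl2 and 278 without Ccl7 in the score. For day 10 against day 3, the 567 genes higher became 288 (top 5%), 891 (top 20%), 992 (per library), 88 (at least 100 UMIs), 2010 (no minimum), 1083 (1.5-fold) and 208 (3-fold), and the 699 lower became 232 (at least 100 UMIs), 1307 (1.5-fold) and 306 (3-fold). Clusters with at least 10% of the members numbered 2 at a resolution of 0.4, against 4 at 0.8. The log2 ratio of Retnla for day 6 against day 3 turned positive with the top 5% (2.07), a thinned score (1.48), and without Ccl24 (1.4), Ccl2 (1.06) or Ccl7 (1.27). The mean log2 ratio of Klrd1, at 0 UMIs in members, turned to 0.47 against the next 10% and 1.41 against others without dendritic cell markers. The counts with at least 3 UMIs and the comparison without dendritic cell markers were chosen after seeing the data. Of 676 values of single named genes in members against others, 565 moved by less than 1 SD over libraries, and of 920 between days, 837 stayed inside the 95% interval. The comparison barcodes mattered more than this count shows. Against the next 10% of the score, Areg alone of these named genes stayed within 1 SD. Against others without dendritic cell markers, Areg, Arg1, Errfi1, Pdpn and Ptgs2 alone did. The cause of these shifts was not tested. With 25 members at day 6 and 1 library per day, depth limits genes under 100 CPM.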

Other observations

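Several gene groups of the members were not described above. Of 10 metalloproteinase genes and their inhibitors measured in members against others, Mmp9 and Adam8 were higher, with a median log2 ratio of 1.02, but Mmp9 came from 1, 1 and 7 member cells at days 3, 6 and 10. Of 12 genes of costimulation and the TNF superfamily, Tnfrsf9, a receptor of activated leukocytes, was the 1 called. Of 14 genes of resident dermal macrophages, Pf4 was higher and the carbonyl reductase gene Cbr2 lower. Ccr2, the receptor for CCL2 and CCL7, was not called, with 570, 180 and 97.1 CPM in members and 829, 414 and 502 CPM in others.

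Between day 10 and day 3, 6 of 16 hypoxia genes were higher in members, with a median log2 ratio of 0.68, against 0.89 in others. Of 16 lipid handling genes, 5 were higher and 2 lower in members, with a median of 0.38, while in others 12 of 18 were higher, with a median of 1.2. Of 13 MHC class I genes, 1 was higher and 6 were lower in members, with a median of -0.98, against -0.50 in others. The differences between members and others in these medians were not tested.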
